A study of Mus musculus with 30 samples.

Results

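Egfr encodes the epidermal growth factor receptor, and Areg, Ereg, Hbegf, Tgfa, Btc, Epgn and Egf encode the ligands that bind it. These 8 genes were followed in the preputial gland duct of mice given an oral carcinogen. The members were the probe sets that the platform annotation gives to them, taken by gene name. The list of genes itself was chosen with earlier results of these data known. Of the 8 genes, 7 were found, with 1 probe set each, among 18784 genes; Areg was not analysed here. Male B6 mice were wild type (WT), lacked Cyp1a1 (Cyp1a1 KO, here KO), or lacked both Cyp1a1 and Cyp1b1 (Cyp1a1/1b1 DKO, here DKO). Mice were put on food carrying benzo[a]pyrene (BaP), a polycyclic aromatic hydrocarbon from combustion, at about 12.5 mg/kg/day from 6 weeks of age, and glands were taken after 0, 4, 8, 12 and 16 weeks. Each of the 15 groups held 2 mice, hybridised to 1 array each, which gave 30 arrays. Genotype names are those of the labels throughout. Mice of week 0 were the only ones without BaP, and every exposed mouse was older than they were, so exposure and age cannot be told apart.

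The receptor is a tyrosine kinase of the plasma membrane. Its ligands are made as membrane proteins and are released by metalloproteases, after which the receptor dimerises and signals through adaptor proteins to the RAS, RAF and ERK cascade and to PI3 kinase and AKT. In keratinocytes the pathway drives proliferation and migration and holds back terminal differentiation, several of the ligand genes are themselves switched on by it, and it is a common growth signal of squamous cell carcinoma. Cyp1a1 and Cyp1b1 encode cytochromes P450 that oxidise BaP and are induced through the aryl hydrocarbon receptor (AhR). The design asked how the genotypes differ from one another and how each changes over the weeks, in a study of squamous cell carcinoma of the duct.

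Egfr and Tgfa were the members called lower in DKO than in both other genotypes (values below), and the 250 bases before their start sites are shown for that reason. The sequences are from RefSeq on GRCm38.p6, 5′ to 3′ in the direction of the gene, and both lie on the + strand, at chr11:16751953-16752202 for Egfr and chr6:86194972-86195221 for Tgfa. Capitals mark the GC box, GGGCGG or its reverse complement, a motif bound by SP1-type factors.
Egfr: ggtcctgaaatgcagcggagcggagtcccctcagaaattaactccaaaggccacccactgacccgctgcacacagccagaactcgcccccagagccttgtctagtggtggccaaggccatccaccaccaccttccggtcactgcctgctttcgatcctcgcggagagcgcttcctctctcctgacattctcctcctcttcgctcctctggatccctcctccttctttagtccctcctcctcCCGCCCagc
Tgfa: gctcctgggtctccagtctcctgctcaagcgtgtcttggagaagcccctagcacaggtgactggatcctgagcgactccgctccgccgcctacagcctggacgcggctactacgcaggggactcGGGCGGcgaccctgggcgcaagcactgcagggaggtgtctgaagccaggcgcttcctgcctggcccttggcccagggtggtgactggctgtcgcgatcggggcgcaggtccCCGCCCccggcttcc
The Egfr window held 1 GC box and the Tgfa window 2. Their GC content was 60.8% and 69.2%, against a median of 52.4% over all promoters. It was 59.6% in the window of Btc, 46.8% in that of Epgn, and 50.4% and 52.0% in those of Egf. None of these windows of Btc, Epgn and Egf held a GC box. Of 32851 promoter windows of that length, 32.7% held a GC box on either strand, 28.2% held GCGTG, the core of the AhR site, and 6.75% held the AP-1 site TGANTCA. The AhR core occurred 1 time in the Tgfa window, 2 times in that of Btc and not in those of Egfr, Epgn and Egf, and the AP-1 site was in none of these 5. RefSeq promoter windows were matched for 5 of the 7 members, the others being Ereg and Hbegf. Matches are a description of these letters, and different motifs were allowed to share bases.

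The arrays were not alike. The standard deviation of all log2 values on an array was 1.70 to 2.08 on 21 arrays and 1.15 to 1.42 on 9, called low-range arrays here: 8 of the 10 DKO arrays and KO week 12 replicate 2. The DKO arrays of normal range were week 0 replicate 1 and week 12 replicate 2. The median gene had a standard deviation between the arrays of a group of 0.168 in WT, 0.342 in KO and 0.560 in DKO. The knocked-out genes did not check the labels. Cyp1a1 read 4.26 to 4.69 in exposed WT, no higher than the 4.35 to 4.74 of WT week 0. It read 3.76 to 4.80 in exposed KO and 3.98 to 6.14 in exposed DKO. In exposed mice Cyp1b1 read 6.17 to 6.77 in WT, 7.71 to 8.82 in KO and 9.48 to 10.57 in DKO. It was thus highest in the genotype labelled as lacking it. At week 0 Cyp1b1 read 6.20 to 6.52, 6.66 to 6.69 and 7.48 to 8.74. Where the probes of these genes lie relative to the deleted parts is not given in the labels. Markers of the named tissue were present: over the 7 basal keratinocyte genes (such as Krt5 and Krt14) the mean log2 intensity was 8.28 to 8.88 on WT arrays, and over 9 sebocyte genes it was 8.45 to 8.91. Fewer cells of a type and less RNA per cell cannot be told apart in such whole-tissue samples.

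Egfr was read at a log2 intensity of 7.33 to 8.34 on the 10 WT arrays (median 8.20), 6.60 to 8.50 on the KO arrays (median 7.85) and 6.38 to 7.34 on the DKO arrays (median 6.90). The WT arrays read 8.17 and 7.51 at week 0, 8.27 and 8.34 at week 4, 8.30 and 8.23 at week 8, 7.33 and 7.94 at week 12, and 8.27 and 7.87 at week 16. Those of KO read 6.60 and 7.79, then 8.02 and 8.50, 8.02 and 7.91, 8.02 and 6.61, and 7.20 and 6.86 at the same weeks. The DKO arrays read 7.34 and 7.15 at week 0, and then 6.66 and 6.38, 6.40 and 7.16, 6.48 and 7.22, and 6.48 and 7.34. WT was lowest in 1 array of week 12 and 1 of week 0, and KO was low in 1 array at week 0 and 1 at week 12 and in both at week 16. In log2 intensity every DKO array lay below 9 of the 10 WT arrays. Ranked among the genes of its own array, Egfr did not separate the genotypes. It stood at percentile 80.4 to 90.6 in WT, 76.2 to 91.1 in KO and 78.7 to 91.3 in DKO.

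**Figure D1:**
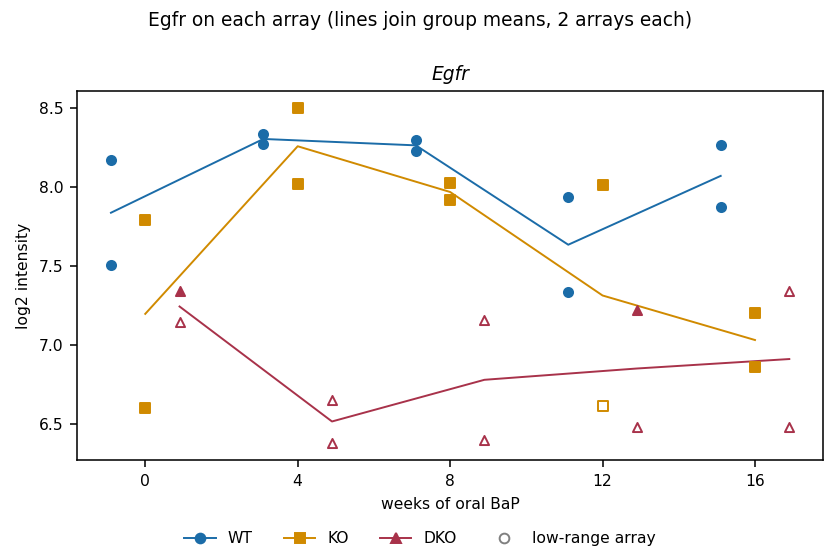
Log2 intensity of Egfr (vertical axis) against weeks of oral BaP (horizontal axis), 1 point per array, with lines joining the means of the 2 arrays of each group; open symbols are low-range arrays. DKO points lie between 6.38 and 7.34, and WT points between 7.33 and 8.34.

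No change of Egfr with exposure passed the test in any genotype. Exposed WT arrays (weeks 4 to 16) differed from week 0 by a log2 difference of 0.23 ± 0.36 (± is the standard error of the limma fit throughout; adjusted p = 1.00), KO by 0.45 ± 0.36 (adjusted p = 1.00) and DKO by -0.48 ± 0.36 (adjusted p = 0.522). The WT value ran from -0.10 without week 0 replicate 2 to 0.56 without week 0 replicate 1, and the KO value from -0.15 without week 0 replicate 1 to 1.04 without week 0 replicate 2. At week 16 alone the differences from week 0 were 0.23 ± 0.45 in WT, -0.17 ± 0.45 in KO and -0.33 ± 0.45 in DKO. The change in DKO minus that in WT was -0.71 ± 0.50 and minus that in KO -0.92 ± 0.50, and neither passed the test (adjusted p = 0.992 and 0.728). The change in KO minus that in WT was 0.21 ± 0.50 (adjusted p = 1.00).

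Ereg, which encodes epiregulin, a ligand of both EGFR and ERBB4, varied most of the 7: the standard deviation of its 15 group means was 0.86. WT arrays read 6.09 and 3.86 at week 0, 5.56 and 6.45 at week 4, 4.996 and 5.13 at week 8, 5.50 and 7.70 at week 12, and 7.13 and 7.20 at week 16. KO arrays read 3.78 and 4.64 at week 0, 7.10 and 6.72 at week 4, 5.29 and 5.04 at week 8, 6.09 and 5.07 at week 12, and 5.40 and 4.54 at week 16. DKO arrays read 5.44 and 5.05 at week 0, 5.87 and 5.43 at week 4, 4.96 and 5.43 at week 8, 5.45 and 4.80 at week 12, and 3.59 and 5.11 at week 16. The highest group means were therefore WT week 16 (7.16 ± 0.05, SD, n = 2) and KO week 4 (6.91 ± 0.27, SD, n = 2), while no DKO group mean exceeded 5.65. The next group, WT week 12, had a mean of 6.60 with an SD of 1.55 and could not be ordered against those 2.

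At week 16 the mean of the WT arrays was above that of week 0 by a log2 difference of 2.19 ± 0.65, or 4.56-fold. Over all genes this did not pass (adjusted p = 1.00; unadjusted p = 0.00294, 1 of 227 genes under 0.05), and it came to 3.30 without WT week 0 replicate 1 and 1.08 without WT week 0 replicate 2. With array weights, which count arrays by how closely they follow their group, the adjusted p was 0.0514. Averaged over weeks 4 to 16, Ereg was 1.23 ± 0.52 above week 0 in WT and 1.45 ± 0.52 above it in KO (adjusted p = 1.00 in both). The WT average was 2.35 without week 0 replicate 1 and 0.12 without week 0 replicate 2, and the KO average 1.02 without week 0 replicate 1 and 1.88 without week 0 replicate 2. In DKO the average change was -0.17 ± 0.52 and that at week 16 -0.90 ± 0.65, with overlapping arrays; in KO the change at week 16 was 0.76 ± 0.65. The change in DKO minus that in KO was -1.62 ± 0.73 (unadjusted p = 0.0377, adjusted p = 0.655), and minus that in WT -1.40 ± 0.73 (adjusted p = 0.992). The change in KO minus that in WT was 0.22 ± 0.73 (adjusted p = 1.00).

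Hbegf encodes heparin-binding EGF-like growth factor, a ligand induced early in wounded epidermis. WT arrays read 6.91 and 6.26 at week 0, 6.63 and 6.74 at week 4, 6.27 and 6.21 at week 8, 6.67 and 8.99 at week 12, and 7.59 and 8.00 at week 16. KO arrays read 5.62 and 6.36, 6.66 and 7.14, 6.40 and 6.41, 6.88 and 5.67, and 6.60 and 5.97 in the same order. DKO arrays read 6.66 and 5.16, 5.48 and 5.49, 6.12 and 7.27, 6.70 and 6.75, and 5.73 and 5.50. Only 3 arrays exceeded 7.27, the highest DKO value, and all of them were WT at weeks 12 and 16. WT week 16 was 1.22 ± 0.57 above week 0 (limma, unadjusted p = 0.0455, adjusted p = 1.00). The arrays did not overlap, which held for 5 of the 7 members in that comparison. The share of all genes without overlap was not computed, so the count is not a result about the members. The changes over weeks 4 to 16 were 0.56 ± 0.45 in WT, 0.48 ± 0.45 in KO and 0.22 ± 0.45 in DKO (adjusted p = 1.00, 1.00 and 0.848), and those at week 16 were 0.30 ± 0.57 in KO and -0.30 ± 0.57 in DKO. The DKO value over weeks 4 to 16 ran from -0.53 without week 0 replicate 2 to 0.97 without week 0 replicate 1.

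**Figure D2:**
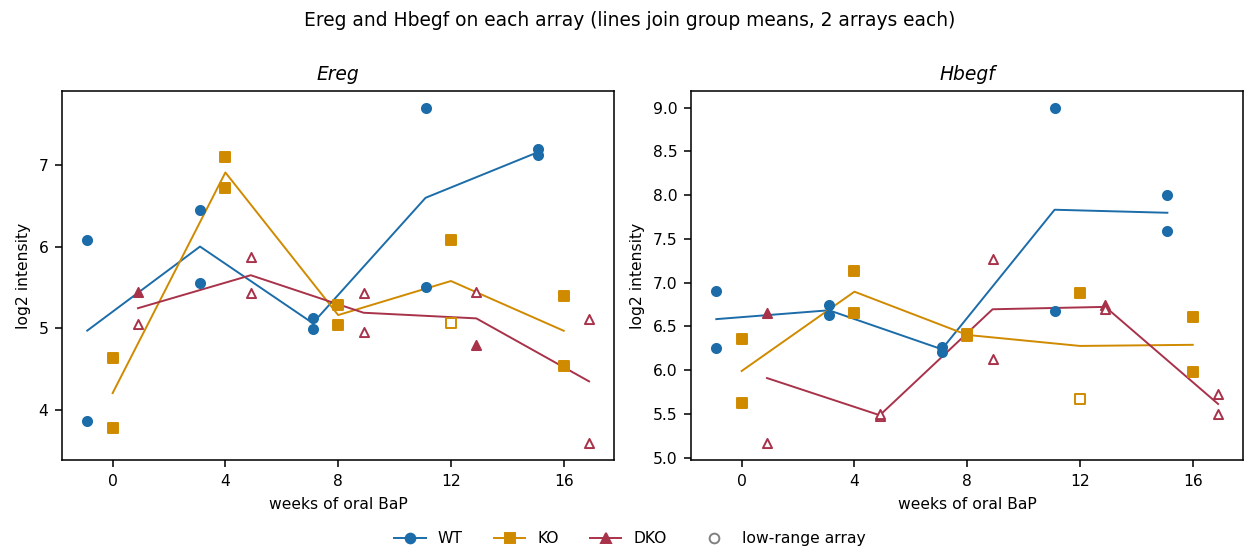
Log2 intensity of Ereg (left) and Hbegf (right) against weeks of oral BaP, 1 point per array, with lines joining the means of 2 arrays; open symbols are low-range arrays. Both genes are highest in WT week 12 replicate 2 and in the WT arrays of week 16, and Ereg is also high at week 4 of KO, at 7.10 and 6.72.

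Ereg and Hbegf moved together from array to array in WT. Across the 10 WT arrays Pearson's r was 0.882 (permutation p = 0.00017) and Spearman's rho 0.939 (permutation p = 0.0002), and r was 0.938 without the 2 arrays farthest from the Ereg median. Adjusted over the 21 pairs of members computed in each genotype, the permutation p-values were 0.00357 and 0.0042. In KO the same pair had r = 0.803 and rho = 0.867 (adjusted permutation p = 0.0587 and 0.0456; r = 0.793 without the 2 farthest), and in DKO r = 0.127 and rho = -0.103 (adjusted permutation p = 0.831 and 0.910). The pair was noticed in the values before it was tested, the arrays span all 5 weeks, and the difference between genotypes in r was not tested. Of the other pairs, Egfr and Hbegf in KO had r = 0.891 (adjusted permutation p = 0.0143) with rho = 0.818 (0.0645), and r = 0.75 without the 2 farthest arrays. The low-range array, KO week 12 replicate 2, read low in both, at 6.61 and 5.67. Egfr and Tgfa in WT had r = 0.885 (adjusted permutation p = 0.0189), with r = 0.478 without the 2 farthest arrays, and Hbegf and Epgn in WT r = 0.870 (adjusted permutation p = 0.0292) with rho = 0.588 (0.430).

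Tgfa, the transforming growth factor alpha gene, read 5.94 to 6.69 on WT arrays (median 6.37), 5.52 to 6.51 on KO arrays (median 6.25) and 4.86 to 6.26 on DKO arrays. The DKO arrays read 6.23 and 5.12 at week 0, 5.44 and 6.26 at week 4, 5.39 and 5.97 at week 8, 4.86 and 5.70 at week 12, and 5.10 and 5.61 at week 16. Of these 10 arrays, 8 lay below 9 of the 10 WT arrays; the others were week 0 replicate 1 and week 4 replicate 2. Exposure gave differences of 0.12 ± 0.30 in WT, -0.11 ± 0.30 in KO and -0.13 ± 0.30 in DKO (adjusted p = 1.00, 1.00 and 0.861).

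Btc encodes betacellulin, which also binds ERBB4. Its WT arrays ran from 5.95 to 6.66, its KO arrays from 6.37 to 7.18 and its DKO arrays from 5.88 to 7.44. In WT all 8 exposed arrays lay above both arrays of week 0 (6.13 to 6.66 against 5.95 and 6.08), with a difference of 0.34 ± 0.28 that did not pass (limma, adjusted p = 1.00). How many of all genes were without overlap there was not computed, so whether this is particular to Btc is not known. The changes were 0.08 ± 0.28 in KO and 0.06 ± 0.28 in DKO. Epgn encodes epigen, a low-affinity ligand. It read 3.83 to 5.03 in WT, 3.71 to 4.96 in KO and 3.50 to 5.33 in DKO, the highest WT array being week 12 replicate 2, as for Ereg and Hbegf. Its changes with exposure were 0.16 ± 0.33, 0.14 ± 0.33 and 0.41 ± 0.33 (adjusted p = 1.00, 1.00 and 0.559).

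Egf encodes epidermal growth factor, made in quantity by salivary gland and kidney. It was even in WT, at 4.16 to 4.81, and in KO, at 4.48 to 5.38, where the top array was the low-range one. The DKO arrays read 4.36 and 6.17 at week 0, 4.87 and 4.88 at week 4, 6.32 and 5.84 at week 8, 5.62 and 4.60 at week 12, and 5.22 and 5.29 at week 16. The DKO arrays of normal range were the 2 lowest of them, 4.36 and 4.60. Exposure gave 0.26 ± 0.32 in WT, -0.0094 ± 0.32 in KO and 0.06 ± 0.32 in DKO (adjusted p = 1.00, 1.00 and 0.939).

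**Figure D3:**
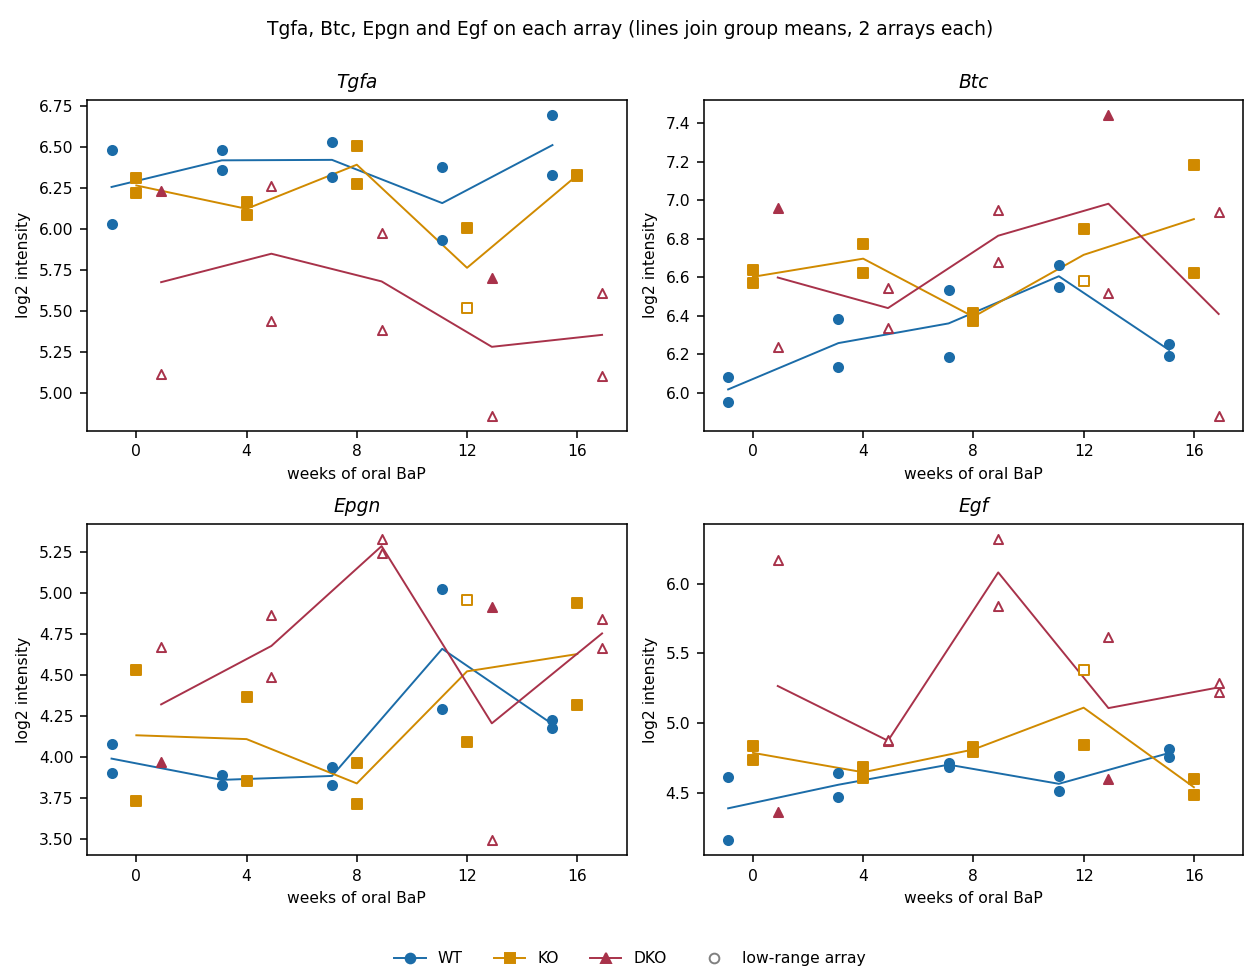
Log2 intensity of Tgfa, Btc, Epgn and Egf against weeks of oral BaP, 1 point per array, with lines joining the means of 2 arrays; open symbols are low-range arrays. Tgfa is lower and Egf higher on most DKO arrays, and the DKO arrays of normal range (filled) lie at the lower end for Egf.

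Across the exposure comparisons, no member was called at an adjusted p under 0.05 in limma in any genotype. For weeks 4 to 16 against week 0 the share of all genes called was 0% in WT (154 at an unadjusted p under 0.05), 0% in KO (258) and 0.974% in DKO (183 genes). For week 16 against week 0 it was 0% in WT (227), 0% in KO (217) and 4.04% in DKO (759 genes). The fit pools the spread of all groups, which for the median gene was 0.168 in WT, 0.342 in KO and 0.560 in DKO. A missing call in WT or KO therefore does not show that nothing changed. At an unadjusted p under 0.05 the members were Ereg in WT and in KO for weeks 4 to 16, Ereg and Hbegf in WT at week 16, and none in the others. All 7 differences were positive in WT in both comparisons, with medians of 0.26 and 0.26 against 0.03 and 0.05 over all genes, but the comparisons share the WT week 0 arrays. Without week 0 replicate 2 Egfr came to -0.10 and Tgfa to -0.11 over weeks 4 to 16, Egfr to -0.098 at week 16, and Ereg over weeks 4 to 16 to 0.12. In DKO at week 16, 1 of 7 was positive, with a median of -0.30 against 0.04. The difference between genotypes in the change passed for no member. The share of all genes called there was 0% for KO against WT (101 at an unadjusted p under 0.05), 0.0373% for DKO against WT and 0.0426% for DKO against KO. The WT comparisons share their week 0 arrays, as do those of each other genotype.

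Between genotypes on BaP (the mean of weeks 4 to 16), DKO differed from WT at 6 of 7 members, where 71.5% of all genes were called (41.5% higher and 30% lower). Of the 6, 4 were lower and 2 higher in DKO, and with most genes called a call was nothing particular to a member. Egfr was lower by a log2 difference of -1.30 ± 0.22 (2.47-fold, adjusted p = 4.26e-05). Ereg was lower by -1.13 ± 0.33 (adjusted p = 0.00432), Hbegf by -1.01 ± 0.29 (adjusted p = 0.00369) and Tgfa by -0.83 ± 0.19 (adjusted p = 0.000595). Egf was higher by 0.68 ± 0.20 (adjusted p = 0.00558) and Epgn by 0.58 ± 0.21 (adjusted p = 0.0168), and Btc differed by 0.30 ± 0.18 (adjusted p = 0.129). Single arrays decided 2 of these: Epgn came to 0.49 (adjusted p = 0.0530) on leaving out WT week 12 replicate 1 and to 0.40 (adjusted p = 0.0633) on leaving out DKO week 12 replicate 2, and Btc came to 0.42 (adjusted p = 0.0384) on leaving out DKO week 12 replicate 1 and to 0.43 (adjusted p = 0.0250) on leaving out DKO week 16 replicate 1. The ranges of the 8 exposed arrays overlapped between DKO and WT for all 7 members. The median over the members was -0.83, against 0.19 over all genes, a shift that became 0.02 when each array was centred on its median. Over the 9392 genes whose mean level lies above the median gene it was -0.63, with 5434 called lower and 748 higher.

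DKO differed from KO at 3 of 7 members, where 58.9% of all genes were called (33.5% higher and 25.4% lower). Egfr was lower by -0.88 ± 0.22 (adjusted p = 0.00259), Tgfa was lower by -0.61 ± 0.19 (adjusted p = 0.00954) and Egf was higher by 0.55 ± 0.20 (adjusted p = 0.0247). Epgn differed by 0.46 ± 0.21 (adjusted p = 0.0634), Ereg by -0.58 ± 0.33 (0.132), Hbegf by -0.34 ± 0.29 (0.313) and Btc by -0.016 ± 0.18 (0.943). The Egf call was lost without KO week 12 replicate 1 (0.49), DKO week 8 replicate 1 (0.49) or DKO week 12 replicate 1 (0.42), with adjusted p of 0.0624, 0.0556 and 0.0830. Epgn was called without KO week 12 replicate 2 (0.56), KO week 16 replicate 2 (0.53) or DKO week 12 replicate 1 (0.63), with adjusted p of 0.0233, 0.0463 and 0.00980. No member was called between KO and WT, where 1.5% of all genes were called and 2349 had an unadjusted p under 0.05. The nearest was Hbegf, at -0.67 ± 0.29 (unadjusted p = 0.0284, adjusted p = 0.330); Egfr differed by -0.43 ± 0.22, Ereg by -0.55 ± 0.33, Tgfa by -0.23 ± 0.19, Btc by 0.32 ± 0.18, Epgn by 0.12 ± 0.21 and Egf by 0.12 ± 0.20.

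**Figure D4:**
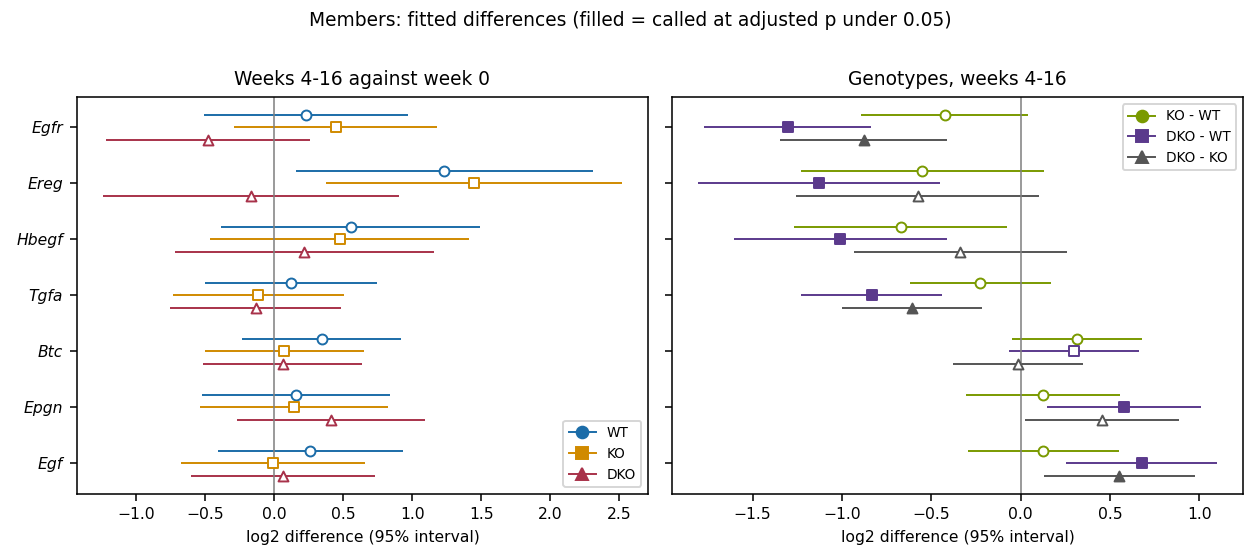
Log2 differences of the 7 members with 95% intervals of the limma fit, for weeks 4 to 16 against week 0 in each genotype (left) and between genotypes over weeks 4 to 16 (right); filled symbols were called at an adjusted p under 0.05. No symbol on the left is filled, and 6 of the DKO against WT and 3 of the DKO against KO differences on the right are.

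Of the 8 exposed DKO arrays 7 were low-range, and the genotype differences depended on how those arrays were treated. With the label numbers 1 to 20 and 22 to 33, which nearly follow genotype, as a block, 0 members were called between DKO and WT and 0 between DKO and KO, and 0.804% and 0.538% of all genes. There 1 and 0 members had an unadjusted p under 0.05 in limma. Only KO week 12 and DKO week 0 hold arrays of both number ranges, so the block effect rests on those groups. The block therefore cannot tell number range and genotype apart well. Without the low-range arrays 1 DKO array, of week 12, was left to compare, with its spread taken from the other groups. Against the WT arrays of that week Egfr differed by -0.42 (adjusted p = 0.456), Ereg by -1.80 (0.0996), Hbegf by -1.09 (0.196), Tgfa by -0.46 (0.165), Epgn by 0.26 (0.605) and Egf by 0.033 (0.917). After quantile normalization Ereg (-1.24, adjusted p = 0.00572) and Tgfa (-0.75, adjusted p = 0.0203) were still called lower in DKO than WT, Btc was called higher, and Egfr at -0.44 (adjusted p = 0.118), Hbegf at -0.60 (0.121), Egf at 0.38 (0.215) and Epgn at -0.069 (0.836) were not called. Quantile normalization also moved the split of all calls from 58% to 46.4% higher. Against KO, no member was called after quantile normalization, and 3 had an unadjusted p under 0.05.

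For Btc the calls appeared under other settings instead. Between DKO and WT it was called higher after quantile normalization (0.89, adjusted p = 0.000756) and when arrays were scaled to 1 standard deviation (0.55, adjusted p = 0.0167). Without the low-range arrays it was 0.84, from the 1 DKO array left, whose spread was taken from WT and KO. Between KO and WT on BaP, its difference was 0.35 ± 0.10 without all 9 low-range arrays. Of these 8 were DKO arrays, whose spread then left the fit, and KO week 12 kept a single array. With all arrays it was 0.32 ± 0.18 (limma, adjusted p = 0.456). The KO arrays of week 0 read 6.64 and 6.57 and the WT arrays of week 0 read 6.08 and 5.95. Of the 7 members 2 were without overlap there, and the share of all genes was not computed, so the count is not a result about the members. No member was called between KO and WT at week 0 with all arrays.

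At week 0, before exposure, no member was called between genotypes, and Egf between DKO and WT was the 1 with an unadjusted p under 0.05. The share of all genes called was 0% between KO and WT (1292 at an unadjusted p under 0.05), 3.90% between DKO and WT and 0% between DKO and KO (1601). For the members called in both DKO comparisons on BaP, DKO differed from WT at week 0 by -0.59 ± 0.45 in Egfr, -0.58 ± 0.38 in Tgfa and 0.88 ± 0.41 in Egf (adjusted p = 0.339, 0.275 and 0.149). DKO differed from KO by 0.047 ± 0.45, -0.59 ± 0.38 and 0.48 ± 0.41 (adjusted p = 0.974, 0.587 and 0.652). The DKO group of week 0 holds 1 array of each range, and its Egf values, 4.36 and 6.17, span nearly the whole DKO range. Without the array of normal range Egf was 1.78 above WT (adjusted p = 0.00168), and 1.38 above KO (adjusted p = 0.0148), and Tgfa differed from WT by -1.14 (adjusted p = 0.0353). Without the other, low-range array Egf was -0.025 from WT and -0.42 from KO, and Tgfa was -0.023 from WT (adjusted p = 0.994), so each of these rests on which of the 2 arrays is kept.

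Over the 15 group means, the 5 genes most like Egfr were Papss2, which makes the sulphate donor of cells (r = 0.974), Insr, the insulin receptor (r = 0.964), Ano6, a phospholipid scramblase (r = 0.964), Tbl1x, a corepressor subunit (r = 0.962), and Prpf8, a core splicing factor (r = 0.961). Over the 10 groups of WT and KO alone these correlations were 0.930 to 0.971. Of the ligands, Tgfa was nearest (r = 0.723, and 0.425 over WT and KO alone), and Epgn (r = -0.740), Egf (r = -0.570) and Btc (r = -0.533) had negative correlations. For Ereg the 5 most alike were Trim16, a ubiquitin ligase of keratinocytes (r = 0.863), Gcnt2, a glycosyltransferase (r = 0.848), Ttc9 (r = 0.814), Pxdc1 (r = 0.787) and Stbd1, a glycogen-binding protein (r = 0.775), and Hbegf reached 0.739. Over WT and KO alone Trim16 stood at 0.969 and Hbegf at 0.858. The points of each correlation come from the same arrays and share their range of values, and the genes were picked as the highest of all, so no p is given.

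The other genes of the pathway were taken in 5 lists: the ErbB partners and neuregulins (7 genes measured of 7), the proteases and cofactors that shed the ligands (11 of 11), the adaptors and kinases downstream (22 of 27), the feedback inhibitors (19 of 19) and the genes that respond to ERK (17 of 17). In the change of DKO over weeks 4 to 16, none of the lists had a called gene, where 0.974% of all genes were called; the list medians were -0.0087, -0.025, -0.18, -0.17 and 0.48, against 0.04 over all genes. Without adjustment, 1, 0, 2, 1 and 3 of their genes had a p under 0.05. In WT and KO, where limma called no gene at all, none was called either. In the limma fit of the DKO change over weeks 4 to 16, each list had its genes with the smallest p. Among receptors and their ligands they were Nrg4, a neuregulin (-1.14 ± 0.36, adjusted p = 0.120), Erbb3, the kinase-poor partner (-0.83 ± 0.41), and Erbb4 (0.54 ± 0.28). Among the shedding genes they were the metalloproteases Adam19 (0.52 ± 0.29), Adam17 (-0.63 ± 0.40), which releases several of the ligands, and Adam9 (-0.29 ± 0.27). Downstream they were Pik3cb, a PI3 kinase subunit (-0.68 ± 0.28), Akt2 (-1.24 ± 0.52) and Src (0.45 ± 0.23). Among inhibitors they were Socs5 (-0.67 ± 0.29), the ERK phosphatase Dusp4 (-0.43 ± 0.27) and Errfi1, which binds and silences the receptor (-0.77 ± 0.52). Among ERK response genes they were the transcription factor Fos (0.80 ± 0.28, adjusted p = 0.171), Phlda1 (0.84 ± 0.32) and Etv5 (0.73 ± 0.34). The adjusted p of these 15 genes ran from 0.120 to 0.620. Without the low-range arrays 1 DKO array was left on each side, with no replicate in either, so the values there (-1.27 for Nrg4 and 0.74 for Adam17, against its direction with all arrays) compare 2 arrays. Nrg4 came to -1.98 (adjusted p = 0.0128) on leaving out DKO week 0 replicate 2 and to -0.30 (adjusted p = 0.744) on leaving out DKO week 0 replicate 1.

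Between DKO and WT on BaP, where 41.5% of all genes were called higher and 30% lower, the adaptors and kinases were called lower at 18 of 22 and higher at 1, with a median of -1.16 against 0.19 over all genes and -0.63 over the 9392 genes whose mean level lies above the median gene, of which 5434 were lower and 748 higher. The feedback inhibitors were lower at 10 of 19 and higher at 1 (median -0.48). The ErbB partners and neuregulins were lower at 4 of 7 and higher at 2 (median -0.49). The shedding genes were lower at 4 and higher at 2 of 11 (median -0.094). The ERK response genes were higher at 7 and lower at 3 of 17 (median 0.25). With the number block no gene of any of the 5 lists was called, and without the low-range arrays 2, 2, 5, 7 and 3 genes were, in the order ErbB partners, shedding, adaptors, inhibitors and response genes, from the 1 DKO array left.

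**Figure D5:**
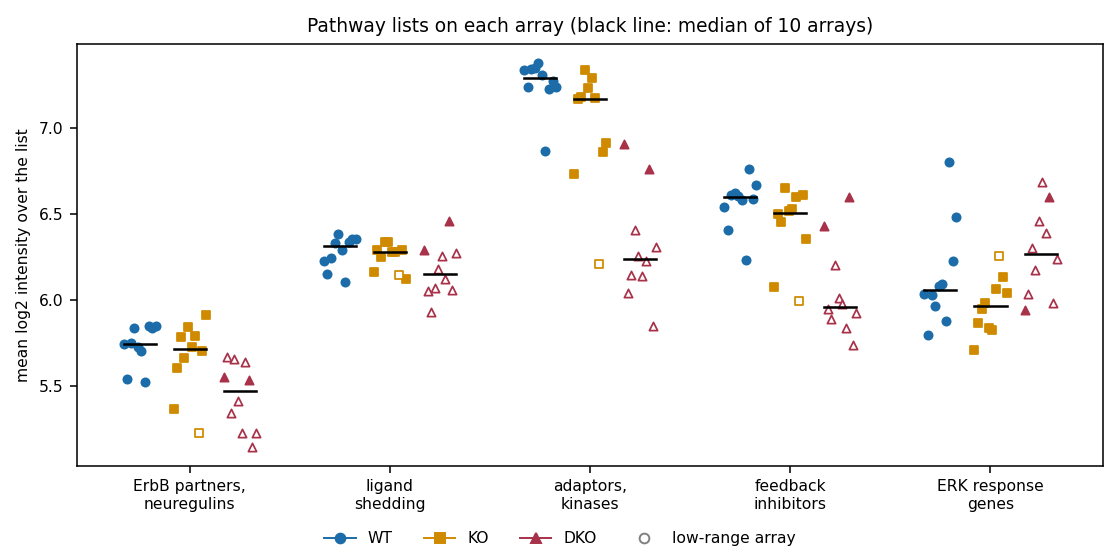
Mean log2 intensity over the measured genes of each of 5 EGFR pathway lists (vertical axis), 1 point per array, by genotype; open symbols are low-range arrays and black lines medians of 10 arrays. The DKO median of the adaptors and kinases is 6.24, against 7.29 in WT, and the 2 DKO arrays of normal range are the highest DKO points, at 6.91 and 6.76.

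Markers of cell types moved with the same comparison. Of all genes 41.5% were called higher there and 30% lower. Among the 9392 genes whose mean level lies above the median gene, 5434 were called lower and 748 higher. Between DKO and WT on BaP, 8 of 9 sebocyte genes were called lower and 1 higher (median -2.17); their mean level was 5.88 to 7.91 on DKO arrays, 7.69 to 8.58 on KO arrays and 8.45 to 8.91 on WT arrays. Of 7 basal keratinocyte genes, 5 were lower and 0 higher (median -1.18; 6.69 to 8.23 on DKO and 8.28 to 8.88 on WT arrays). Of 8 genes of differentiating keratinocytes 7 were higher (median 1.14; 7.01 to 9.50 on DKO and 6.29 to 6.98 on WT arrays). Of 9 neutrophil genes 6 were higher and 1 lower (median 0.97; 4.91 to 6.96 on DKO and 4.23 to 4.87 on WT arrays). Of 7 lymphocyte genes 5 were higher, of 9 macrophage genes 2 were higher and 2 lower, of 8 stroma genes 3 were higher and 1 lower, of 7 mast cell and basophil genes 5 were higher, of 6 skeletal muscle genes 3 were higher, and of 5 fat cell genes 1 was lower. Of 5 genes of the kidney and salivary sources of EGF 4 were higher (median 0.68; 4.13 to 5.36 on DKO, 3.71 to 4.84 on KO and 3.58 to 4.03 on WT arrays). The 2 DKO arrays of week 0, 1 of each range, read 4.13 and 5.36 for these kidney and salivary genes. Of the 10 DKO arrays 8 were low-range, and the marker lists were not fitted again under other settings. The part of the array range in the marker differences was not tested. Nor was the part of these cell types in the member differences.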

How the data were processed

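The deposited log2 intensities were summarised per probe set by the authors with RMA, per the submitters' processing notes, which give no version; the genome build is not given in the sources used here. Of 21212 probe sets, 18786 had 1 gene symbol in the platform annotation, 6 had several and 2420 were not listed. The probe set with the highest mean stood for each of 18784 genes. With limma 3.58.1 in R 4.3.3, 15 group means were fitted to the 30 arrays (lmFit, eBayes, 15 residual degrees of freedom), 15 comparisons were made, with Benjamini-Hochberg adjustment across the 18784 genes and calls at an adjusted p under 0.05. One array per mouse and 2 mice per group limit the precision. The p-values use the spread between mice pooled over all 15 groups, not only those compared. For the median gene that spread was 0.168 in WT, 0.342 in KO and 0.560 in DKO. Standard errors in WT and KO therefore carry the spread of DKO mice too. Members differed in this: the SD was 0.16 in WT and 0.67 in DKO for Egf, but 1.03 and 0.58 for Ereg. Correlations between members used permutation tests (100000 resamples, two-sided, scipy 1.17.1). The fit was tested on simulated data in which each gene had the same spread on every array. That test did not cover unequal spread between genotypes or low-range arrays.

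The members and lists were chosen with earlier results of these data known. The text names the 7 members, up to 3 genes with the smallest p per pathway list in DKO weeks 4 to 16, and the 5 genes most correlated with Egfr and with Ereg, the ligand whose group means varied most. Alternatives covered normalization, scale, centring, low values, variance model, array weights, blocks, probe sets, groups in the fit, low-range arrays and each array left out. Scaling combined with fewer groups, and the alternatives for pathway lists and genes, were chosen after seeing the data. Replicate numbers did not pair the samples.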

Additional observations from a re-analysis of the deposited data

How the results depend on the processing

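Each value below is a log2 difference or a count of genes called, and the cause of a change was not tested except where fewer arrays or genes entered the fit. Of 1926 alternatives to 82 gene results, 1778 kept direction and side of the threshold, 35 lost a call, 18 gained one and 95 changed sign, 53 of those without leaving out a single array. Replicate numbers did not pair the samples: over 105 pairs of groups the correlation of same-numbered deviations ran from -0.55 to 0.67 (median -0.02), and 16 exceeded 0.1. With the replicate block, 6 members were still called between DKO and WT on BaP and 3 between DKO and KO. Members called numbered 6 between DKO and WT, 3 after quantile normalization, 1 without the low-range arrays and 0 with the number block; between DKO and KO they numbered 3, then 0, 0 and 0, with 1 at the same standard deviation, and 0 within numbers 22 to 33 or with only the compared groups at the same standard deviation. Between KO and WT on BaP and at week 0, and between DKO and WT at week 0, 1 member was called without the low-range arrays and within numbers 1 to 20. The calls over all genes went from 13429 to 151 between DKO and WT with the number block, and from 183 to 1482 without the low-range arrays and 2 with array weights in DKO weeks 4 to 16. The share of calls that were higher went from 58% to 46.4% (quantile), 49.3% (centred) and 47.8% (same standard deviation) for DKO against WT, and from 56.8% to 44.3%, 46.8% and 43.5% for DKO against KO; among the 9392 genes that pass the filter on low values it was 12.1% and 10.2%.

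Pathway lists, in the order ErbB partners, shedding, adaptors, inhibitors and response genes: without the low-range arrays, which left 1 exposed DKO array and so no replicate, 1, 1, 1, 1 and 2 were called in DKO weeks 4 to 16, and 2, 2, 5, 7 and 3 between DKO and WT. After quantile normalization 1 response gene was called in DKO weeks 4 to 16, and 1 shedding gene, 10 adaptors and 4 inhibitors between DKO and WT. There the number block left 0 in every list, the filter on low values, which tests fewer genes, left 3 ErbB partners and 5 response genes, and the same standard deviation left 1 shedding gene, or with only the compared groups 3 ErbB partners, 0 shedding genes and 12 adaptors.

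Sign changes without the low-range arrays were, in DKO weeks 4 to 16, Adam17 0.74, Adam9 0.17 and Pik3cb 0.0014; for DKO against KO on BaP, Btc 0.59 and Egf -0.24; at week 0, Egf -0.025 against WT and -0.42 against KO, the same within numbers 1 to 20; and 0.081 for Egfr in the change of DKO minus WT. After quantile normalization they were Egf 0.027 in KO and -0.32 in DKO weeks 4 to 16, Egfr 0.018 in DKO week 16, Epgn -0.029 for KO against WT, -0.069 for DKO against WT and -0.040 for DKO against KO, Btc 0.47 for DKO against KO, and Egfr 0.25 for DKO against WT at week 0. At the same standard deviation, with all or only the compared groups, Egf was -0.18 in DKO weeks 4 to 16 and Btc 0.21 for DKO against KO; with centred arrays Egfr was -0.046 for DKO against KO at week 0.

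With the number block, DKO weeks 4 to 16 gave Ereg 0.18, Tgfa 0.27, Egf -0.52, Adam9 0.17 and Errfi1 0.12, and week 16 Egfr 0.067 and Hbegf 0.38. On BaP, KO against WT gave Egf -0.022; DKO against WT gave Hbegf 0.34, Epgn -0.21 and Egf -0.49; and DKO against KO gave Ereg 0.038, Hbegf 0.85, Tgfa 0.092, Btc 0.42, Epgn -0.23 and Egf -0.47. At week 0 Egf was -0.11 for DKO against KO. Within numbers 22 to 33, DKO weeks 4 to 16 gave Ereg 0.026, Tgfa 0.42, Egf -0.84, Adam9 0.068 and Errfi1 0.076, week 16 gave Hbegf 0.45, and DKO against KO gave Egfr 0.24, Ereg 0.051, Hbegf 1.05, Btc 0.40, Epgn -0.75 and Egf -0.27.

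Leaving out 1 array at a time, where a group left with 1 array takes its spread from the rest of the fit, gave these ranges where a sign or call changed, beside the calls on BaP given with their comparisons. In WT weeks 4 to 16, Egfr ran from -0.10 to 0.56 and Tgfa from -0.11 to 0.35, and at week 16 Egfr from -0.098 to 0.56. In KO weeks 4 to 16, Egfr ran from -0.15 to 1.04, Epgn from -0.26 to 0.54 and Egf from -0.076 to 0.058, and at week 16 Egfr from -0.76 to 0.43 and Hbegf from -0.072 to 0.67. In DKO weeks 4 to 16, Ereg ran from -0.36 to 0.026, Hbegf from -0.53 to 0.97, Tgfa from -0.69 to 0.42, Btc from -0.30 to 0.42, Egf from -0.84 to 0.97, Adam9 from -0.65 to 0.068, Errfi1 from -1.61 to 0.076 and Nrg4 from -1.98 to -0.30, with 0 to 1 ErbB partners called. At DKO week 16, Egfr ran from -0.76 to 0.098 and Hbegf from -1.04 to 0.45. For DKO against KO on BaP, Btc ran from -0.15 to 0.12. At week 0, Egf ran from -0.025 to 1.78 against WT and from -0.42 to 1.38 against KO, Egfr from -0.55 to 0.64 against KO, Tgfa from -1.14 to -0.023 against WT, and 0 to 2 members were called against WT and 0 to 1 against KO. For the change in KO minus that in WT, Egfr ran from -0.38 to 0.81 and Ereg from -0.90 to 1.33.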
